A study of Mus musculus with 6 samples.

Results

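The genes of glycolysis and of the cellular response to low oxygen were followed in 3 lines of immortalized mouse keratinocytes that differ in the integrin subunit α3. The set was a list of 37 gene symbols, and its members were the transcript clusters whose platform annotation gives 1 of those symbols alone. Such a cluster was found for 31 of the 37 genes (32 clusters, since Ldhb had 2), among 14996 clusters with 1 symbol and 23332 clusters in all. No cluster carried Gpi1, Gapdh, Pgk1, Pgam1, Eno1 or Ldha alone in the annotation used here, so these 6 genes were not analysed. One further cluster lists Pgam1 together with Mdh1, and another lists Bnip3l together with Zranb3, and neither was used.

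MK116 cells are wild type and MK546 cells are α3-null; the 2 lines were derived from separate neonatal animals and carry SV40 large T, which inactivates the tumour suppressors p53 and Rb. The rescue line was MK546 stably transfected with human α3. Each genotype was represented by 1 line with 2 exon arrays of total RNA, described as biological replicates, but whether the 2 arrays represent separate cultures is not stated. All 3 lines shared the same culture, at 33 °C and 8% CO2 on denatured collagen, in low-calcium medium (0.05 mM) with 4% chelated serum, 5 μg/ml insulin, 10 ng/ml EGF, 0.4 μg/ml hydrocortisone and 10 units/ml interferon-γ. The labels state no oxygen tension.

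Glycolysis splits glucose into pyruvate, which is either oxidised in mitochondria or reduced to lactate and exported through monocarboxylate transporters of the SLC16 family. Hypoxia-inducible factor, a dimer of an oxygen-regulated α subunit such as HIF-1α (Hif1a) and the stable partner ARNT, binds the core sequences ACGTG and GCGTG and raises the transcription of most glycolytic genes. The prolyl hydroxylases PHD2 (Egln1) and PHD3 (Egln3) mark the α subunit for destruction when oxygen is present, and both are themselves induced by the factor. In the epidermis, which has no vessels of its own, keratinocytes depend largely on glycolysis.

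Values are PLIER intensities, a summary of the probes of a transcript cluster on each array, and differences are log2 differences of intensity + 16 (± SE from limma), a scale that understates the change of dim genes. A cluster was called when limma's adjusted p, over all 23332 clusters, was under 0.05. Arrays had median intensities of 96.6 to 108, with Pearson's r across clusters of 0.990 to 0.991 within lines and 0.966 to 0.977 between lines. The targeted gene, Itga3, read 6364 and 6287 in wild type, 997 and 907 in null, and 1218 and 1221 in rescue, where the construct is a human cDNA that mouse probes may read only in part. Of 11 keratinocyte markers 10 were measured, and their summed intensity was 54418 to 56215 in wild type, 55006 to 57200 in null and 48966 to 52831 in rescue, where both arrays were below all others; Krt5 and Krt14 were not called in any comparison. The summed levels were 729 to 862 for 9 fibroblast markers, 253 to 276 for 7 endothelial markers and 284 to 316 for 6 melanocyte markers, and none of these was called. Of the 7 immune-cell markers measured, Cd14 was lower in the null line (means of 180 in wild type, 101 in null and 175 in rescue); the list summed to 1047 to 1049 in wild type, 721 to 864 in null and 947 to 995 in rescue. The keratinocyte markers Trp63, Col17a1 and Itga6 were higher in the null line (0.29 to 0.62). From null to rescue these 3 and Cdh1 were lower (-0.67 to -0.39), all 10 markers had negative differences (median -0.21), and against wild type Cdh1 was lower in rescue (-0.36). The part of these markers in the results below was not tested.

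The promoters of 4 members that were lower in the null line (Slc16a3, Egln3, Bnip3 and P4ha2) and of 2 that were higher (Slc16a1 and Car12) are shown because the results turn on these genes. Each line gives the 250 bases before the annotated transcript start from RefSeq (GRCm38.p6), 5′ to 3′ on the gene's strand, with ACGTG and GCGTG on either strand in capitals; CACGC is GCGTG on the other strand, and a CACGTG counts as ACGTG at 2 overlapping starts, 1 on each strand.
Slc16a3 (chr11:120948817-120949066, plus strand): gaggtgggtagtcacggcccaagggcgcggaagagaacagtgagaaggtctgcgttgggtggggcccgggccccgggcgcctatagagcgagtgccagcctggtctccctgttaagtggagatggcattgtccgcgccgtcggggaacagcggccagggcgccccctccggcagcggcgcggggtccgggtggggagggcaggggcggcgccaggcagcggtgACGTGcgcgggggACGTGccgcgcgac
Egln3 (chr12:54203875-54204124, minus strand): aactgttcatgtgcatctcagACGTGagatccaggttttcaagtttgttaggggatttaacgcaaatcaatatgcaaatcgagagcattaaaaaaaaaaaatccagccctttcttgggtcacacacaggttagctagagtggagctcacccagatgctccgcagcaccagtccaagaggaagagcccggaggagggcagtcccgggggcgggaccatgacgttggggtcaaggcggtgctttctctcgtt
Bnip3 (chr7:138909507-138909756, minus strand): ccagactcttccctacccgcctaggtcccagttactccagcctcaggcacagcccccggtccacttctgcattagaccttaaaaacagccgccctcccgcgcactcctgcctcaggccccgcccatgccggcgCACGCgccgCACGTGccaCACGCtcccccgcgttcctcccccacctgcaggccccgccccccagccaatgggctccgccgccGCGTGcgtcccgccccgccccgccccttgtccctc
P4ha2 (chr11:54100674-54100923, plus strand): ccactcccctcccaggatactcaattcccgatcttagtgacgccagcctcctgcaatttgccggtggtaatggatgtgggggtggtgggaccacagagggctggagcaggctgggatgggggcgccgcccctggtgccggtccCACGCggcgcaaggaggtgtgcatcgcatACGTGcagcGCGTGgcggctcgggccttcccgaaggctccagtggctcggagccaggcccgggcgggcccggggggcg
Slc16a1 (chr3:104638414-104638663, plus strand): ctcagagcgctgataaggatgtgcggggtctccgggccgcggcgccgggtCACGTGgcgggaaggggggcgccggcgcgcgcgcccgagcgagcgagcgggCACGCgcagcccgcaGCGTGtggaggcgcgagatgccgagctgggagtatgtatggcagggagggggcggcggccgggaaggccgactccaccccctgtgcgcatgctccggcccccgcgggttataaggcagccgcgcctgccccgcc
Car12 (chr9:66713436-66713685, plus strand): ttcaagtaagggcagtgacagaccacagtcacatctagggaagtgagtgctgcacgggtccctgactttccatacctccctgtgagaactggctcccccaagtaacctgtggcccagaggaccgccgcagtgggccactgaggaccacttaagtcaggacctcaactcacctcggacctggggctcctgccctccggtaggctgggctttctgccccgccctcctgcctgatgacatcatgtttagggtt

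Slc16a3 held ACGTG with its leftmost base 27 and 14 bases before the start, Egln3 held it 229 bases before, and Bnip3 held a CACGTG flanked by matches to GCGTG. P4ha2 had 2 matches to GCGTG around 1 to ACGTG, and a further ACGTG in the 50 bases after the start. Slc16a1, which rose where Slc16a3 fell, had matches to both motifs, and Car12 had neither in these bases. Over the 300-base windows of the table (250 before to 50 after the start), 30 of 34 members with a window (88.2%) held at least 1 of the motifs, against 46.7% of all 27025 genes. Of the measured members it was 25 of 28 (89.3%), against 58.6% of 11894 genes that have a cluster of their own. Counted by single windows, 43.8% of all 32851 held 1. The members were listed as glycolysis and hypoxia-response genes, so the choice of genes may itself raise their share. Member windows were also richer in G and C, with a median of 62.3% against 52.7% for all windows, and both motifs contain a CpG. Windows were not found for Slc2a3, Bnip3l and Ndrg1. A match of letters is a description of the sequence and says nothing about binding.

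In the null line, 9 of the 31 measured members fell and 4 rose against wild type, and 18 did not pass. The 9 were Slc16a3, Egln3, P4ha2, Bnip3l, Bnip3, Pfkm, Ndrg1, Pfkfb4 and Pfkp, and the 4 were Car12, Slc16a1, Hk1 and Hk2. Over all clusters limma called 15.3% (6.84% lower and 8.49% higher). Over the clusters with 1 symbol, from which the members come, it called 19.5% (8.76% lower and 10.7% higher). Calls were more frequent among bright clusters: of the 11666 clusters with a mean at or above the median cluster mean of 105, 27.2% were called (15.8% higher and 11.4% lower), beside 13 of the 25 members in that range and 0 of the 6 dimmer members, which read 21.6 to 120 on single arrays. With a log2 difference of at least 1 required as well, 6 members passed, and 2.72% of all clusters. The median log2 difference was -0.081 over the members and -0.0055 over all clusters. The lines did not overlap for 26 members, and for 56.3% of all clusters.

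In the rescue line against its null parent, 5 members rose and 8 fell, where limma called 15.4% of all clusters (9.75% higher and 5.62% lower) and 26.8% of the bright ones (16.5% higher and 10.4% lower). Over the clusters with 1 symbol the share was 18.4% (11.7% higher and 6.76% lower). Past a log2 difference of 1 stood 1 member, Egln3, and 2.33% of all clusters. P4ha2, Pfkm, Bnip3, Bnip3l and Pfkfb3 rose, and Egln3, Pfkl, Egln1, Pfkfb4, P4ha1, Slc16a1, Car12 and Hk1 fell. The median log2 difference was -0.082 over the members and 0.024 over all clusters, and lines did not overlap for 22 members and for 55.6% of all clusters. Against wild type the rescue line had 6 members higher and 11 lower, where limma called 15.4% of all clusters (10.4% higher and 5.05% lower) and 25.6% of the bright ones (17.8% higher and 7.86% lower). Over the clusters with 1 symbol the share was 18.5% (12.3% higher and 6.14% lower). Past a log2 difference of 1 stood 3 of these members, and 3.17% of all clusters. The medians were -0.11 over the members and 0.030 over all clusters. In that comparison 25 members had lines that did not overlap, as did 57.6% of all clusters. The 3 comparisons share arrays, so their counts are not independent. These are bulk RNA samples, in which fewer cells of a type and less RNA per cell cannot be told apart.

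**Figure D1:**
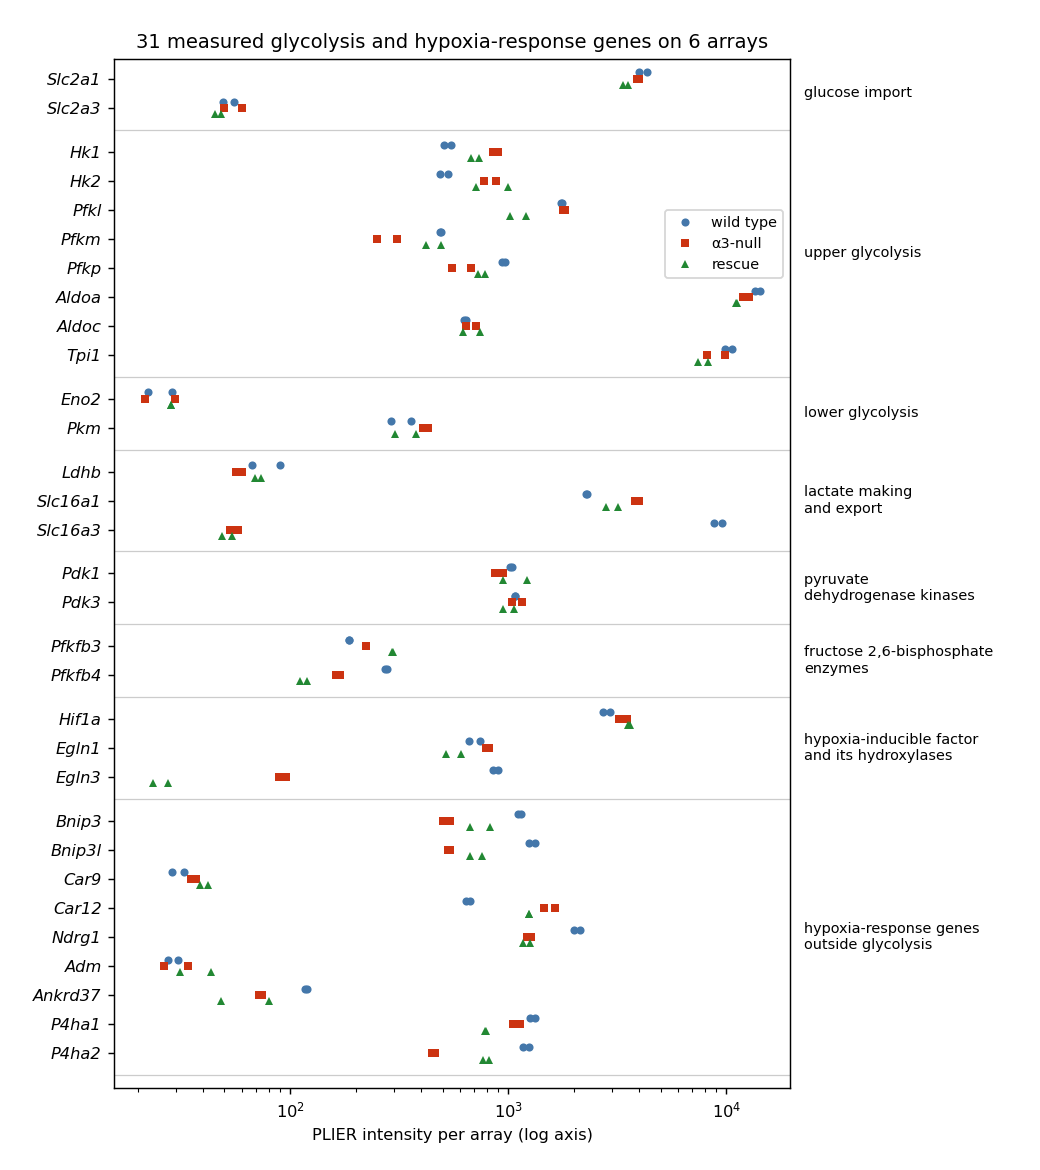
PLIER intensity (log axis) of the 31 measured members, grouped by role, on the 2 arrays of each line; each symbol is 1 array. Slc16a3 lies at 8785 to 9612 on the wild-type arrays and at 48.6 to 57.4 on the other 4, while Slc2a1, Aldoa and Pdk3 stay within a narrow range on all 6.

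**Figure D2:**
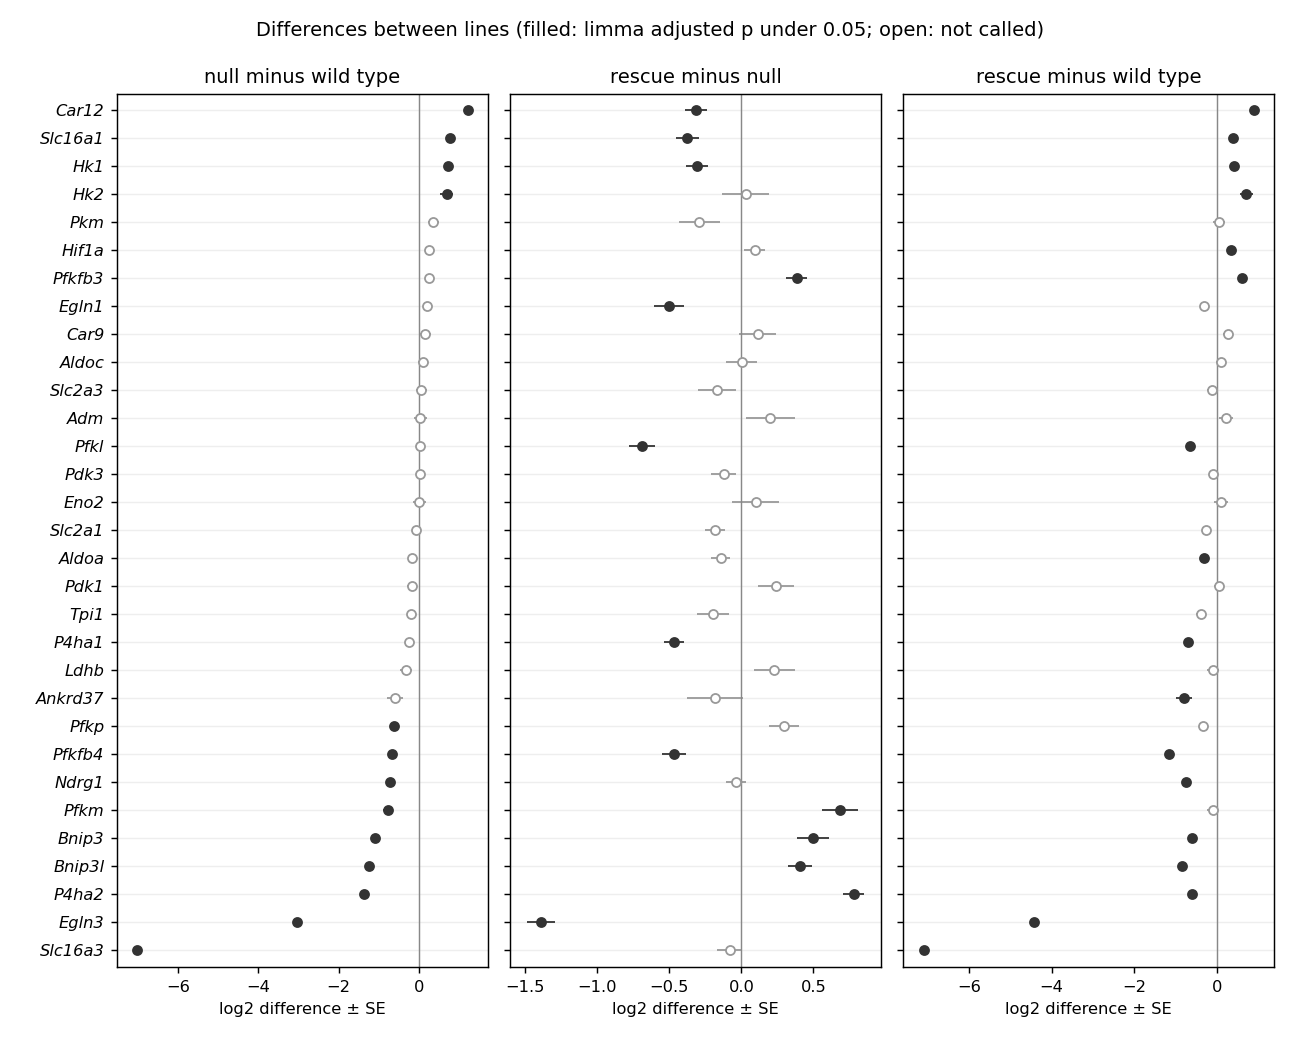
Log2 difference ± SE (limma, log2 of intensity + 16) of each member in the 3 comparisons, in the order of the null minus wild type difference. Each panel has its own horizontal scale. Filled points passed an adjusted p under 0.05. Slc16a3 and Egln3 are farthest from 0 against wild type in both lines, and the rescue minus null differences run from -1.39 to 0.78.

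The lactate exporter was the member that differed most. Slc16a3, which encodes MCT4, the low-affinity transporter through which strongly glycolytic cells release lactate, read 9612 and 8785 in wild type, 53.0 and 57.4 in null, and 48.6 and 54.0 in rescue. The wild-type arrays stood far above the other 4, and the null and rescue arrays overlapped. The null line kept 0.600% of the wild-type intensity (log2 difference -7.02 ± 0.09, limma adjusted p = 1.55e-06), and the rescue line 0.557% (-7.10 ± 0.09, limma adjusted p = 1.93e-06). Between rescue and null the difference was -0.08 with a 95% interval of -0.30 to 0.13 (limma adjusted p = 0.616), so human α3 was not accompanied by a detectable return of this transcript. The table has no detection p-values, and how far intensities near 50 lie above background is not known.

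Slc16a1, which encodes the more widely expressed transporter MCT1, went the other way. It gave 2303 and 2271 in wild type, 3812 and 3964 in null, and 3192 and 2802 in rescue. All 3 lines were apart, with the rescue arrays between the others. It rose in the null line by 0.76 ± 0.08 (limma adjusted p = 0.00264), fell in the rescue line by 0.38 (limma adjusted p = 0.0288), and remained 0.38 ± 0.08 above wild type there (limma adjusted p = 0.0274). The last 2 calls were lost when most single arrays were left out, with limma adjusted p up to 0.132 for rescue minus null (without the second null array) and up to 0.149 for rescue minus wild type (without the second wild-type array).

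The 2 transporters work with an ancillary glycoprotein, basigin for both, and embigin serves some transporters of the family. Bsg (basigin) gave 5905 and 5447 in wild type, 6068 and 6289 in null, and 7030 and 5481 in rescue, and was not called in any comparison; it is named here after its values were seen. Emb (embigin) gave 709 and 764, then 66.6 and 78.0, then 22.5 and 23.1 in the same order, a log2 difference of -3.09 for null minus wild type (limma adjusted p = 3.55e-05) and of -1.18 between rescue and null (limma adjusted p = 0.00209). Among the 13 measured of 15 other monocarboxylate transporters and chaperones, 3 fell and 0 rose in the null line (23.1%, beside 15.3% of all clusters and 27.2% of the bright ones). Besides Emb these included Slc16a13, a transporter of the same family, which gave 1361 and 1210 in wild type, 46.3 and 36.4 in null, and 57.9 and 37.3 in rescue (log2 difference -4.51 in null, limma adjusted p = 6.61e-05), and Slc5a8, a sodium-coupled monocarboxylate transporter, at -0.57. How far the rescue intensities of Emb and the null and rescue intensities of Slc16a13 lie above background is not known. The sizes of the further fall of Emb and of the fall of Slc16a13 describe intensities and may not give the change in transcript. In the rescue line against null, 2 of the 13 fell, Emb and the aromatic amino acid transporter Slc16a10 (-0.80), and 0 rose (15.4%, the same share as over all clusters). Ldhb, a lactate dehydrogenase subunit, had intensities of 56.8 to 89.7 and was not called.

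**Figure D3:**
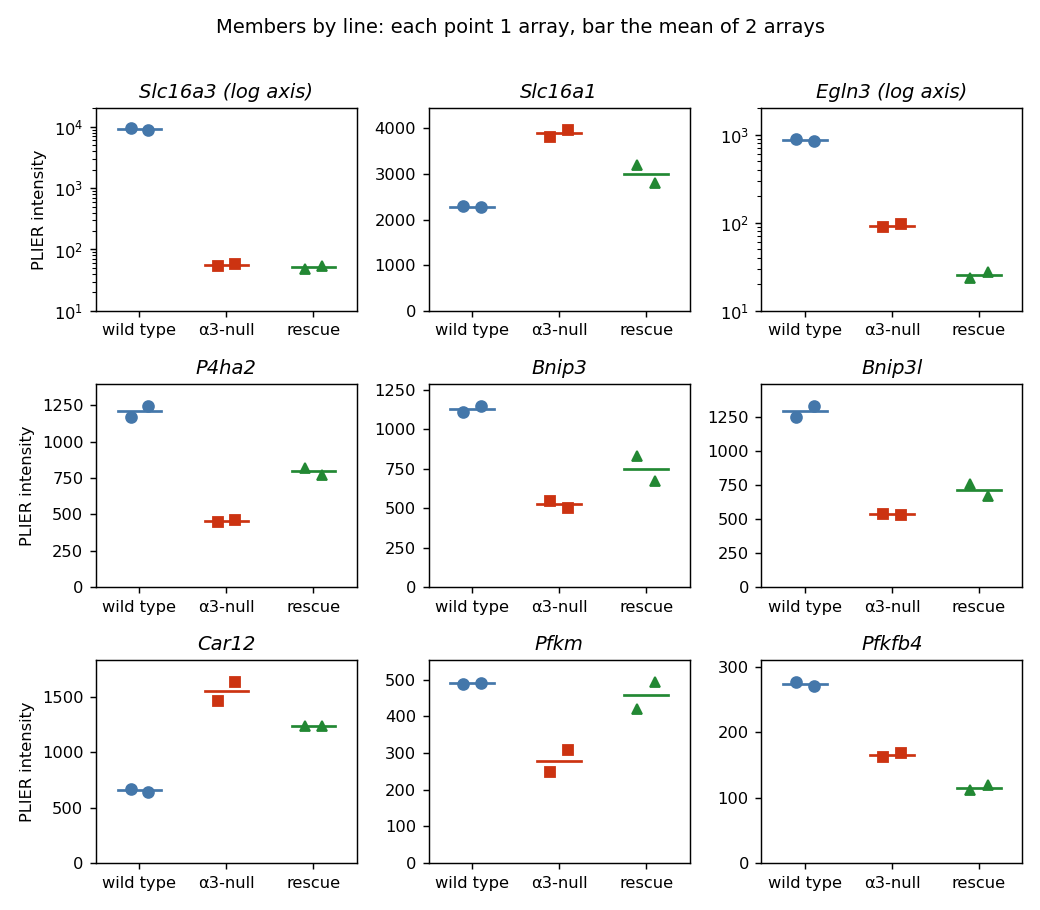
PLIER intensity of 9 members by line (points, single arrays; bars, means of 2 arrays), with log axes for Slc16a3 and Egln3. The rescue arrays lie between the other lines for Slc16a1, P4ha2, Bnip3, Bnip3l and Car12, with the null arrays for Slc16a3, and below the null arrays for Egln3 and Pfkfb4.

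Of the oxygen-sensing genes, Egln3 fell in both lines against wild type, Egln1 fell from null to rescue, and Hif1a was higher in rescue than in wild type. Egln3 gave 901 and 850 in wild type, 89.1 and 96.2 in null, and 23.5 and 27.4 in rescue. All 3 lines were apart, and the rescue line was the lowest. The null line kept 10.6% of the wild-type intensity (log2 difference -3.04 ± 0.10, limma adjusted p = 2.82e-05) and the rescue line 2.91% (-4.43 ± 0.10, limma adjusted p = 7.25e-06), and the further fall from null to rescue was -1.39 ± 0.10 (limma adjusted p = 9.40e-04). How far intensities of 23.5 to 27.4 lie above background is not known either, so the share left in the rescue line and the size of the further fall describe intensities and may not give the change in transcript. Egln1, the main hydroxylase of HIF-1α in most cells, gave 660 and 743 in wild type, 818 and 788 in null, and 519 and 609 in rescue. It fell by 0.50 from null to rescue (limma adjusted p = 0.0260), and was not called against wild type in the null (0.19, limma adjusted p = 0.301) or rescue line (-0.31, limma adjusted p = 0.104). That call was lost without the first null, second null or first rescue array (limma adjusted p = 0.121, 0.0969 and 0.0941).

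Hif1a gave 2732 and 2944 in wild type, 3218 and 3512 in null, and 3553 and 3619 in rescue. The lines did not overlap, and the wild-type arrays were the lowest. It was higher in rescue than in wild type by 0.34 ± 0.07 (limma adjusted p = 0.0326), a call lost without any of these 4 arrays (limma adjusted p = 0.0932 to 0.178), with quantile normalization (0.0549) and with median centring (0.0737), and was not called in null minus wild type (0.24, limma adjusted p = 0.0832). Of 14 measured genes of the hypoxia-inducible factor machinery (17 listed), 4 rose and 1 fell in the null line, 1 rose and 2 fell from null to rescue, and 2 rose and 0 fell in rescue against wild type. The shares called were 35.7%, 21.4% and 14.3%. Limma called 15.3%, 15.4% and 15.4% of all clusters and 27.2%, 26.8% and 25.6% of the bright ones. Arnt, the partner of HIF-1α, gave 723 and 719 in wild type, 947 and 1018 in null, and 746 and 734 in rescue (0.44 in null and -0.40 from null to rescue, limma adjusted p = 0.00987 and 0.0144). Cited2, which competes with the factor for the coactivators p300 and CBP, went from 2006 in wild type to 1410 in null and 2604 in rescue as means of 2 arrays (-0.50 and 0.88, limma adjusted p = 0.00389 and 8.07e-04). Siah2, a ubiquitin ligase that acts on prolyl hydroxylases, was higher in both lines than in wild type (0.60 and 0.58), and Os9 rose in null and fell in rescue (0.37 and -0.53). Epas1 (HIF-2α), Vhl, Egln2 and Hif1an were not called in any comparison and are named after their values were seen.

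Among the 9 hypoxia-response members outside glycolysis, 4 fell and 1 rose in the null line. P4ha2, a catalytic subunit of the collagen prolyl 4-hydroxylase, gave 1171 and 1245 in wild type, 449 and 464 in null, and 821 and 768 in rescue. The rescue arrays lay between the other lines. It fell by 1.37 in the null line (limma adjusted p = 1.75e-04), rose by 0.78 ± 0.07 from null to rescue (limma adjusted p = 0.00230), and in the rescue line differed from wild type by -0.59 (limma adjusted p = 0.00476, and 0.0510 without the second wild-type array).

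P4ha1, the other catalytic subunit measured, gave 1331 and 1255 in wild type, 1053 and 1134 in null, and 789 and 783 in rescue. The null difference of -0.24 ± 0.07 had the sign of that of P4ha2 but was not called (95% interval -0.41 to -0.067, limma adjusted p = 0.0762). Unlike P4ha2, P4ha1 fell from null to rescue (-0.47, limma adjusted p = 0.0106). The rescue line was also lower than wild type (-0.71, limma adjusted p = 0.00235). The rescue minus null call was lost without the second null array (limma adjusted p = 0.0599).

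Bnip3 and Bnip3l, paired mitophagy receptors of the outer mitochondrial membrane, had a similar order of lines. Bnip3 gave 1109 and 1148 in wild type, 544 and 503 in null, and 829 and 670 in rescue. Bnip3l gave 1252 and 1331, then 540 and 528, then 758 and 668. In both, the rescue arrays lay between wild type and null. The null differences were -1.09 ± 0.11 and -1.25 ± 0.08 (limma adjusted p = 0.00245 and 4.79e-04), and the rescue line differed from wild type by -0.59 and -0.84 (limma adjusted p = 0.0207 and 0.00225). The rises from null to rescue, 0.50 ± 0.11 and 0.40 ± 0.08 (limma adjusted p = 0.0342 and 0.0264), were lost with median centring (limma adjusted p = 0.0609 and 0.0777) and without any array except the second rescue array (0.0732 to 0.148 for Bnip3, 0.0593 to 0.115 for Bnip3l). The Bnip3 difference between rescue and wild type was also lost without either wild-type array (limma adjusted p = 0.0920 and 0.119).

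Ndrg1, a stress-responsive gene linked to differentiation, gave 2127 and 2005 in wild type, 1226 and 1276 in null, and 1173 and 1266 in rescue. It fell by 0.72 in the null line (limma adjusted p = 0.00223) and did not differ detectably between rescue and null (-0.04, 95% interval -0.21 to 0.14). Car12, a membrane carbonic anhydrase, was the hypoxia-response member that rose. It gave 670 and 643 in wild type, 1465 and 1635 in null, and 1240 and 1242 in rescue. The log2 difference was 1.22 ± 0.08 in null (limma adjusted p = 3.52e-04) and 0.90 ± 0.08 in rescue (limma adjusted p = 0.00121) against wild type. The fall of -0.31 from null to rescue (limma adjusted p = 0.0426) was lost whichever array was left out (limma adjusted p = 0.0632 to 0.167). Ankrd37, an ankyrin-repeat gene, gave 120 and 117 in wild type, 74.0 and 71.9 in null, and 79.9 and 48.0 in rescue, and was called only in rescue minus wild type (-0.78, limma adjusted p = 0.0467); that call was lost without any array except the first rescue array (limma adjusted p = 0.0711 to 0.171). Adm, which encodes the peptide adrenomedullin, and the carbonic anhydrase gene Car9 lay between 26.5 and 43.2 on all arrays and were not called.

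The first steps of glycolysis changed in both directions. Hk1, the hexokinase found in most tissues, gave 508 and 547 in wild type, 851 and 900 in null, and 678 and 732 in rescue. It rose by 0.71 ± 0.08 in the null line (limma adjusted p = 0.00301). The smaller differences of rescue from null (-0.31, limma adjusted p = 0.0492) and from wild type (0.41, limma adjusted p = 0.0215) were lost when single arrays were left out (limma adjusted p = 0.0695 to 0.194 for every array in the first, 0.0524 to 0.123 for each wild-type and rescue array in the second). Hk2, the inducible hexokinase, gave 484 and 530 in wild type, 880 and 777 in null, and 714 and 997 in rescue. The null and rescue arrays were above wild type and overlapped each other, with differences of 0.69 ± 0.16 and 0.72 ± 0.16 (limma adjusted p = 0.0392 and 0.0352). The null call was lost without any wild-type or null array (limma adjusted p = 0.100 to 0.184), and the rescue call without any array except the first rescue array (0.0600 to 0.157). After quantile normalization both Hk2 calls and the rescue minus wild type call of Hk1 were lost (limma adjusted p = 0.0666, 0.0793 and 0.0588).

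The 3 phosphofructokinase genes, which encode the isoforms of the committed step, did not all follow the same pattern. Pfkm and Pfkp were lowest in the null line, and Pfkl was lowest in the rescue line. Pfkm, the muscle-type isoform, gave 489 and 491 in wild type, 249 and 309 in null, and 421 and 493 in rescue, so that the rescue arrays overlapped wild type. Pfkp, the platelet-type isoform, gave 968 and 935, then 555 and 672, then 726 and 784, with the rescue line between the others. Pfkl, the liver-type isoform, gave 1768 and 1756, then 1782 and 1820, then 1020 and 1205, and only the rescue line was low. In the null line Pfkm fell by 0.78 and Pfkp by 0.63 (limma adjusted p = 0.0114 and 0.0131), and Pfkl was not called (0.03, 95% interval -0.19 to 0.25). From null to rescue Pfkm rose by 0.68 ± 0.12 (limma adjusted p = 0.0187), Pfkl fell by 0.69 (limma adjusted p = 0.00679), and Pfkp did not pass (0.30, limma adjusted p = 0.119). In null minus wild type the Pfkm call was lost without either wild-type array or the first null array (limma adjusted p = 0.0762, 0.0736 and 0.0521), and the Pfkp call without either wild-type array (0.0914 and 0.0742). The Pfkm rise in rescue was lost without the first null or second rescue array (limma adjusted p = 0.0755 and 0.0728), while the Pfkl fall was kept under all 17 alternative fits, though its size is under a log2 difference of 1. Against wild type, Pfkl was lower in rescue by -0.66 (limma adjusted p = 0.00707), a call lost without either wild-type array (0.0541 and 0.0589).

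The bifunctional enzymes that set the level of fructose 2,6-bisphosphate, an activator of phosphofructokinase, moved in opposite directions. Pfkfb3, the isoform with the strongest kinase activity, gave 186 and 187 in wild type, 223 and 222 in null, and 297 and 293 in rescue. Pfkfb4 gave 277 and 272, then 163 and 169, then 111 and 119. The 3 lines were apart for both genes, with rescue the highest for Pfkfb3 and the lowest for Pfkfb4. Pfkfb4 fell by 0.68 in null (limma adjusted p = 0.00490) and was lower in rescue than in null (-0.47, limma adjusted p = 0.0175) and wild type (-1.15 ± 0.08, limma adjusted p = 7.00e-04). Pfkfb3 was higher in rescue than in wild type by 0.62 ± 0.07 (limma adjusted p = 0.00446) and than in null by 0.38 ± 0.07 (limma adjusted p = 0.0213), and its null minus wild type difference of 0.24 was not called (limma adjusted p = 0.0885). The rescue minus null calls were less stable: that of Pfkfb3 was lost after quantile normalization or median centring (limma adjusted p = 0.0759 and 0.0762) and without any single array (0.0540 to 0.0969), and that of Pfkfb4 without either null array or the first rescue array (0.0746 to 0.0905).

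Of the other members of the pathway only Aldoa was called, which does not show that the rest were unchanged. Slc2a1, which encodes the glucose transporter GLUT1, gave 4340 and 3973 in wild type, 3888 and 3962 in null, and 3557 and 3359 in rescue, and was not called in any comparison (rescue minus wild type -0.26, limma adjusted p = 0.0601). Aldoa, the main aldolase gene, gave 13544 and 14237, then 11987 and 12773, then 11135 and 11239, and was called only in rescue minus wild type (-0.31 ± 0.07, limma adjusted p = 0.0310), a call lost whichever array was left out (limma adjusted p = 0.0569 to 0.196). Tpi1, which encodes triose phosphate isomerase, ranged from 7428 to 10673 and was not called (rescue minus wild type -0.39, 95% interval -0.66 to -0.12, limma adjusted p = 0.0696). The rescue minus wild type differences of Slc2a1 and Tpi1 each passed under 5 of 17 alternative fits. Aldoc, Pkm (pyruvate kinase), and Pdk1 and Pdk3, kinases that switch off pyruvate dehydrogenase, were not called in any comparison. Their differences ran from -0.29 to 0.35, the last for Pkm in null minus wild type (95% interval 0.008 to 0.70). Pkm read 291 to 429, far below Aldoa and Tpi1, and how well its cluster reports the transcript is not known. The neuronal enolase gene Eno2 and the glucose transporter gene Slc2a3 lay between 21.6 and 60.4 and were not called. Transcripts of abundant glycolytic enzymes have many processed pseudogenes in the mouse genome, and how far probes of Aldoa, Tpi1 and Pkm read these is not known.

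Genes from further lists of the pathway, written with earlier results of these data known, were counted in the same fit, and the bar plot of list calls gives the shares. Over all clusters limma called 15.3% in null minus wild type, 15.4% from null to rescue and 15.4% in rescue minus wild type. Among the bright clusters these shares were 27.2%, 26.8% and 25.6%, and among the 42 further targets below 38.1%, 31% and 33.3%. Of 42 measured further targets of hypoxia-inducible factor (50 listed), 11 fell and 5 rose in the null line, with a median of -0.18 against -0.0055 over all clusters. Plod2, a collagen lysyl hydroxylase gene named after its values were seen, gave 1129 and 1123 in wild type, 287 and 318 in null, and 710 and 634 in rescue, and Mxi1, a Max-interacting repressor, gave 545 and 590, then 119 and 161, then 279 and 293. Both had the rescue line between the others, as P4ha2 had, with differences of -1.84 and -1.92 in null (limma adjusted p = 1.22e-04 and 6.48e-04) and 1.11 and 0.97 from null to rescue (limma adjusted p = 0.00128 and 0.00937). The members with the widest differences in this list were Bhlhe41, a circadian repressor, at 2.85 in null and 3.37 in rescue against wild type, and Vim, an intermediate filament gene that also marks mesenchymal cells, at -2.77 and -2.59, followed by Edn1, the endothelin-1 gene, at 0.64 and 2.04. From null to rescue 11 of the 42 rose and 2 fell (median 0.13 against 0.024 over all clusters), and in rescue against wild type 5 rose and 9 fell (median -0.082 against 0.030). Vegfa, which encodes the vascular growth factor, was not called in any comparison, with 569 and 607 in wild type, 619 and 779 in null, and 757 and 830 in rescue; it is named after its values were seen.

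**Figure D4:**
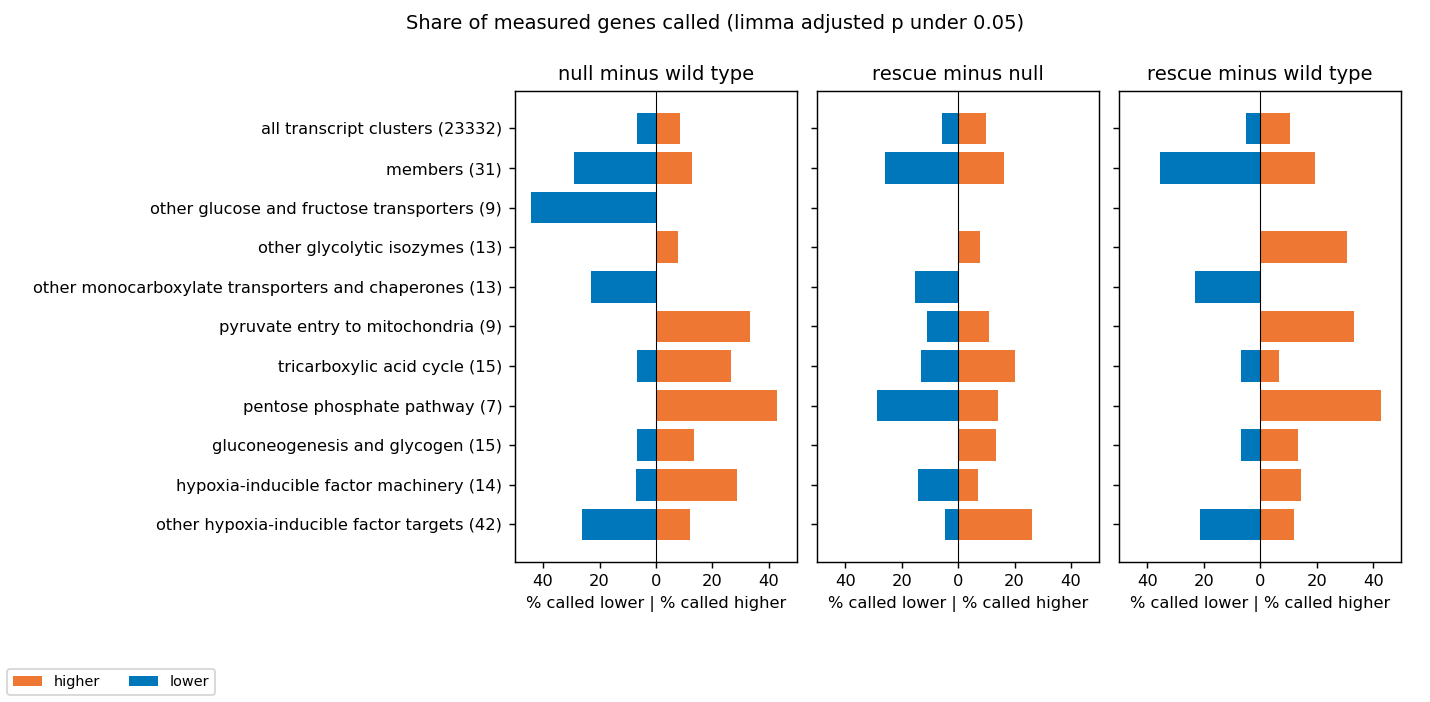
Percentage of measured genes called higher (right of 0) and lower (left of 0) in each comparison (limma adjusted p under 0.05), for all clusters, for the 31 members and for 9 further lists, with the number measured in brackets. Members were called lower more often than higher in all 3 comparisons, and the pentose phosphate genes called in the null line were all higher.

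Of 7 measured pentose phosphate genes (9 listed), 3 rose and 0 fell in the null line. Rpia, ribose 5-phosphate isomerase, gave 268 and 319 in wild type, 676 and 755 in null, and 490 and 571 in rescue (1.24 in null, limma adjusted p = 0.00201), and Tkt and Pgd rose by 0.72 and 0.67. From null to rescue Tkt and Pgd fell by 0.36 and 0.62, and H6pd rose by 0.42. Of 9 measured genes for the entry of pyruvate into mitochondria, 3 rose and 0 fell in null, among them Pdha1 and Dlat, subunits of the pyruvate dehydrogenase complex, by 0.54 each. Of 15 tricarboxylic acid cycle genes 4 rose and 1 fell in null, with Idh2, a mitochondrial isocitrate dehydrogenase, at 0.41 and Idh3b at -0.34, and 3 rose and 2 fell from null to rescue, with Idh2 at 0.76, Sdhd at 0.58 and Idh3b at 0.54. Of 9 measured other glucose and fructose transporters 4 fell and 0 rose in null (Slc5a1, Slc2a4, Slc2a5 and Slc2a8, at -0.49 to -0.39, with limma adjusted p of 0.0441 to 0.0498), and 0 of 9 were called from null to rescue by limma. Of 15 genes of gluconeogenesis and glycogen 2 rose and 1 fell in null, with Gbe1, the glycogen branching enzyme, at 0.47 and G6pc3 at -0.64. In null minus wild type the shares called were 42.9% for pentose phosphate, 33.3% for pyruvate entry and 33.3% for the tricarboxylic acid cycle. They were 44.4% for the sugar transporters and 20% for gluconeogenesis and glycogen. Limma called 15.3% of all clusters and 27.2% of the bright ones. From null to rescue the shares were 42.9% for pentose phosphate, 33.3% for the tricarboxylic acid cycle and 0% for the sugar transporters. In that comparison limma called 15.4% of all clusters and 26.8% of the bright ones. The lists are small, and none was tested as a set.

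Among 13 measured other glycolytic isozymes, 1 was called in the null line (Pfkfb2, up by 0.51), or 7.69% beside 15.3% of all clusters. The muscle enolase gene Eno3 gave 325 and 298 in wild type, 240 and 243 in null, and 1605 and 1418 in rescue. The rescue arrays were high and the other lines were apart from each other by a difference that did not pass (-0.35, limma adjusted p = 0.0514); from null to rescue the log2 difference was 2.57 (limma adjusted p = 9.66e-05). It was the 1 gene of this list called between rescue and null. In rescue against wild type, 4 of the 13 rose (Eno3, Pfkfb2, Adpgk and Tigar) and 0 fell (30.8%, beside 15.4% of all clusters and 25.6% of the bright ones).

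The genes next to the members in RefSeq gene order were read as a further measure that the choice of members did not use, with the 5 nearest measured genes on each side; this was added after the values were seen. Around Slc16a3 on chromosome 11, none of the 10 neighbours was called by limma in any comparison, and their differences between null and wild type ran from -0.37 to 0.10. Of these neighbours Cd7, Sectm1b, Sectm1a and Tex19.1 read only 16.5 to 60.3. How far such intensities lie above background is not known, so these genes could hardly show a fall. The genes on either side of it were Ccdc57 (86.6 and 82.2 in wild type, 74.0 and 83.3 in null) and Csnk1d, a casein kinase (2652 and 2626 in wild type, 2780 and 2733 in null). Around Egln3 on chromosome 12, 1 of 10 neighbours was called in null minus wild type, Arhgap5, which was higher (0.68), and the neighbours ran from -0.24 to 0.68. From null to rescue, where Egln3 fell further, 3 of these neighbours were called lower (Arhgap5 at -0.45, Snx6 at -0.37 and Cfl2 at -0.26) and 1 higher (Sptssa at 0.44), and in rescue minus wild type 2 were called higher and 0 lower. Around Pfkfb4 on chromosome 9 the 10 neighbours had a median of -0.23 between null and wild type, from -1.22 to 0.045. Of these, 2 were called lower and 0 higher, and the difference of Pfkfb4 was -0.68. From null to rescue, where Pfkfb4 was lower by a difference of -0.47, its neighbours had a median of 0.081, with 2 called higher and 0 lower. Around Car12 on the same chromosome the neighbours had a median of 0.034 between null and wild type, with 3 called higher and 2 lower. In that comparison 3 neighbours were called lower and 0 higher around Bnip3l (median -0.16), and 2 and 0 around Bnip3 (-0.18). Around P4ha2, 2 were called lower and 1 higher, and the neighbours ran from -2.93 to 4.33. Around Pfkp and Ndrg1, which also fell, 3 and 2 were called higher and 1 each lower. From null to rescue 3 were called lower and 0 higher around Egln1 and around P4ha1, which fell. Slc16a1 and Car12 fell as well, with 3 neighbours each called higher, and 1 and 0 called lower. For scale, limma called 19.5% of all clusters with 1 symbol in null minus wild type (10.7% higher and 8.76% lower). It called 18.4% of them from null to rescue and 18.5% in rescue minus wild type. The part of neighbouring genes was not tested.

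**Figure D5:**
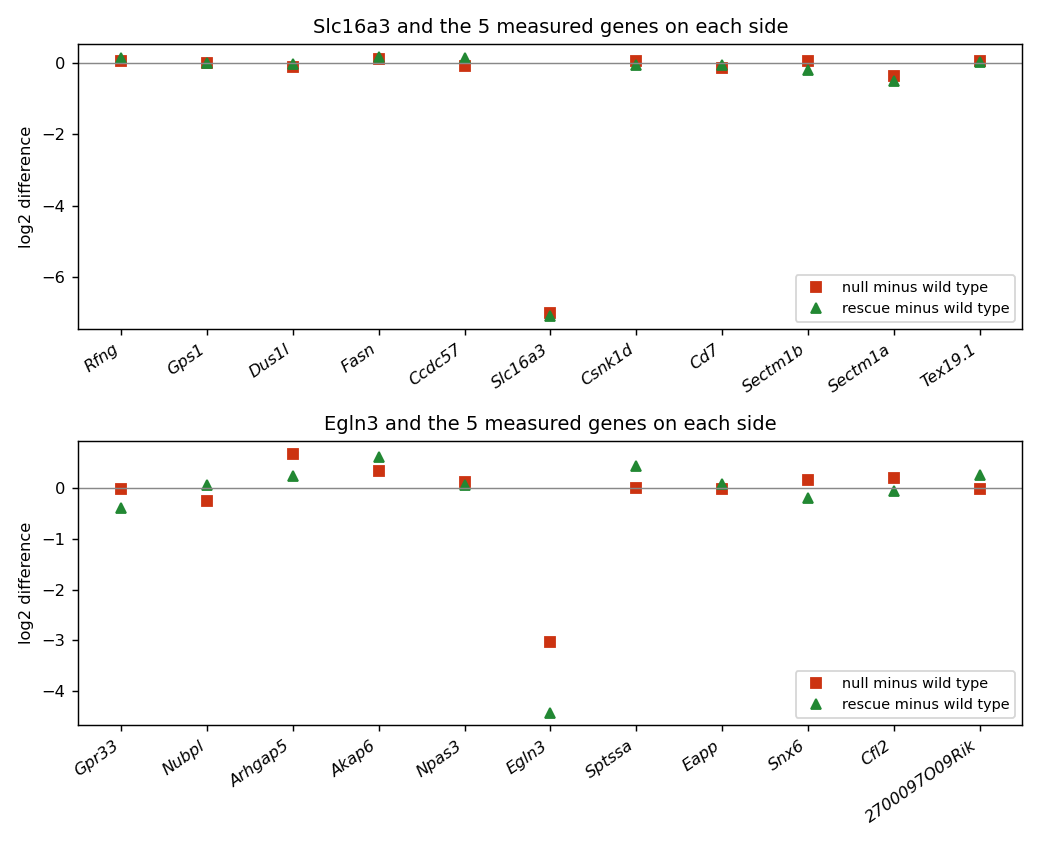
Log2 difference from wild type of the null line (squares) and the rescue line (triangles) for Slc16a3, Egln3 and the 5 measured genes on each side of them in gene order. Slc16a3 lies at -7.02 and -7.10 while its 10 neighbours lie between -0.51 and 0.18, and Egln3 lies at -3.04 and -4.43 while its neighbours lie between -0.38 and 0.68.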

How the data were processed

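RNA from 3 keratinocyte lines was measured on 6 exon arrays, 2 per line, grouped by the sample titles. The intensity values were deposited by the authors as PLIER summaries of core exons (Mouse Exon 1.0 ST platform), per the labels. The submitters' processing notes list Expression Console, and the design text lists the Exon Array Computational Tool. Background correction, scaling between arrays, versions and build are not stated. The table has no detection p-values, and its range shows a linear scale.

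Clusters were named by the platform annotation (14996 with 1 symbol, 1019 with several, 7317 with none); 14941 Entrez identifiers matched the RefSeq table of GRCm38.p6 and 0 symbols changed. Where a symbol had several clusters, the one with the highest mean was used; the second Ldhb cluster, at 7.11 to 18.9, was not called either.

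Values were analysed as log2(intensity + 16) with limma 3.58.1 in R 4.3.3, with 1 mean per line on all 6 arrays, an intensity trend in eBayes (3 residual and 3.00 prior degrees of freedom) and Benjamini-Hochberg adjustment over 23332 clusters in each of 3 comparisons. Tests were two-sided, and p-values measure the spread between arrays within lines. Precision is limited by having 2 arrays per line. The procedure was tested on simulated data. Members, gene lists and tests were chosen with earlier results of these data known. Array values are given for members called in any comparison with a log2 difference of at least 0.8 and for those the text singles out, and up to 4 called genes with the widest differences are named per list; exceptions are marked in the text. Same-numbered arrays of different lines had deviations correlated by -0.023 to 0.054, so the numbers were not taken as pairs. A planned comparison of member proteins was not run.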

Additional observations from a re-analysis of the deposited data

How the results depend on the processing

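In null minus wild type, 10 of 13 member calls were kept under all alternative fits (up to 17 a member, not counting the added limit on the size of the difference, given below), in rescue minus null 3 of 13 (Egln3, P4ha2 and Pfkl), and in rescue minus wild type 8 of 17; 0 called members changed sign. Without an intensity trend in the variance, limma called 2306 clusters in null minus wild type, 2277 clusters and 7 members in rescue minus null, and 11 members in rescue minus wild type. With only the arrays of the 2 lines compared, rescue minus null had 2343 clusters and 6 members called. With a log2 difference of at least 1 required as well, 634 clusters and 6 members, 544 clusters and 1 member (Egln3), and 740 clusters and 3 members passed in the 3 comparisons, in the order used above. Leaving out 1 array at a time gave 1174 to 3524 clusters and 10 to 14 members in null minus wild type, 1304 to 2689 and 4 to 9 in rescue minus null, and 1088 to 2819 and 8 to 13 in rescue minus wild type; the lone array of a line is then assumed to vary like the others. Rescue minus null had the fewest members called (4) without either null array, and rescue minus wild type (8) without the second wild-type array. With the replicate number as a block, 3102, 3124 and 3099 clusters and 12, 12 and 16 members were called; Hk2 in null minus wild type, Car12 in rescue minus null and Aldoa in rescue minus wild type lost their calls (limma adjusted p = 0.0512, 0.0687 and 0.0520). Scaling moved the share of higher calls: over all clusters it was 55.4%, 63.4% and 67.2% as deposited, 53.2%, 49.9% and 53.5% after quantile normalization, and 68.1%, 40.9% and 60.0% after median centring, which moved the median of rescue minus null by -0.12. Over the members, 30.8%, 38.5% and 35.3% of the calls were higher as deposited, 28.6%, 33.3% and 17.6% after quantile normalization, and 35.7%, 18.2% and 27.8% after median centring. Pseudocounts of 1 and 64, both filters on dim clusters, robust variances and the restriction to clusters with 1 symbol kept each count of members within 1.5 times (13 to 16, 12 to 13 and 16 to 20).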
